A study of Homo sapiens with 2 samples.

Results

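The cohesin genes described here are the 5 genes of the core ring (SMC1A, SMC3, RAD21, STAG1 and STAG2), the loader genes NIPBL and MAU2, the ring regulators PDS5A and PDS5B, and the acetyltransferase gene ESCO2. They were picked by symbol in the deposited tables, 10 genes of 49672 symbols, and all 10 were found and reached at least 1 RPKM. Libraries came from C4-2B, an androgen-independent prostate cancer line of bone-metastatic, castration-resistant type. Cells had received 2.5 µM MA4-022-1, which the labels call an inhibitor of BET proteins and kinases, or DMSO as vehicle, for a time not given in the sources used here. There was 1 library for each condition, so no difference has a replicate check, no p-value is given, and every interval covers counting error only.

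Cohesin is a ring of SMC1A, SMC3 and the kleisin RAD21, to which STAG1 or STAG2 binds. It entraps sister chromatids from S phase until anaphase, and in interphase it extrudes chromatin loops. NIPBL with MAU2 loads the ring and drives extrusion, PDS5A and PDS5B bind it and govern its release and stability, and ESCO2 acetylates SMC3 during DNA replication so that cohesion is kept. STAG2 is recurrently mutated in several cancers, mutations of NIPBL are a main cause of Cornelia de Lange syndrome, and those of ESCO2 cause Roberts syndrome.

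ESCO2 was far lower in the MA4-022-1 library, NIPBL was close to 2-fold higher, MAU2 was nearly equal, and the ring and PDS5 genes had ratios below 0 but within 2-fold. Each difference is given as log2 of (RPKM + 1) with MA4-022-1 minus the same with vehicle, and each fold comes from it unless stated otherwise, a scale that understates the change of low genes. ESCO2 was the 1 member of 10 at least 2-fold lower and no member was at least 2-fold higher. Among 9842 expressed protein-coding genes 9.5% lay 2-fold or more below vehicle and 4.12% 2-fold or more above it, and among all 15786 expressed symbols these shares were 9.95% and 8.36%. The members' count beyond 2-fold is therefore near that background. Of the 10 members 8 had a ratio below 0, against 55.8% of the protein-coding genes. The members' median log2 ratio was -0.50, and that of the protein-coding genes was -0.10.

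**Figure D1:**
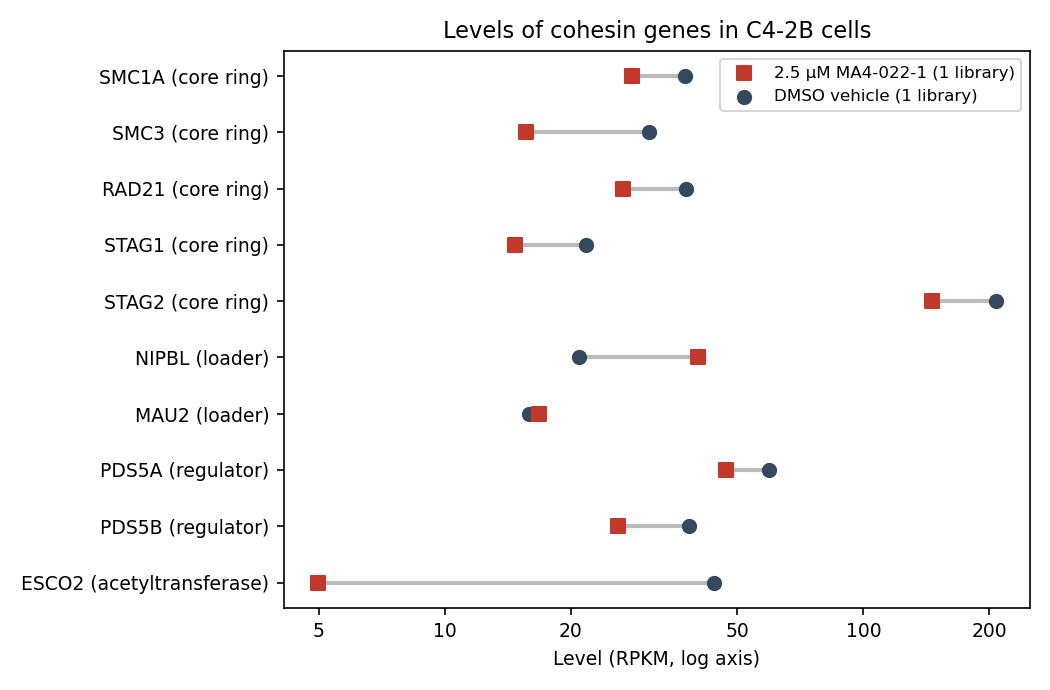
Level of each cohesin gene in RPKM on a log axis, with squares for the MA4-022-1 library and circles for the vehicle library. The ESCO2 square lies at 4.97 and its circle at 43.9 RPKM, and the NIPBL and MAU2 squares are the ones to the right of their circles.

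Sequence upstream of the start is shown for NIPBL, the member with the highest ratio, for SMC3, the ring gene with the lowest, and for STAG1 and PDS5A, lower members whose windows hold letters of E2F sites. E2F factors drive many genes of S phase. The windows are RefSeq's on GRCh38.p14, not the build of the deposited tables, and 8 of the 10 members had at least 1 window. Each line gives the 250 bases before the start, 5′ to 3′ on the gene's strand, which are chr5:36876519-36876768 (plus strand), chr10:110567445-110567694 (plus), chr3:136752379-136752628 (minus) and chr4:39977912-39978161 (minus). Capitals mark TTCCCGC or TTGGCGC, cores of E2F sites, or TTTGAA, the core of the cell cycle homology region, on either strand.
NIPBL: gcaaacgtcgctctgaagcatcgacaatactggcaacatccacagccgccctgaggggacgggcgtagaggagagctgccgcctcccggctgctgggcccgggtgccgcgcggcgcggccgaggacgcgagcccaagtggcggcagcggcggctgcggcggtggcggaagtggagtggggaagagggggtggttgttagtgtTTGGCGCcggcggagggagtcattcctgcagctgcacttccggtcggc
SMC3: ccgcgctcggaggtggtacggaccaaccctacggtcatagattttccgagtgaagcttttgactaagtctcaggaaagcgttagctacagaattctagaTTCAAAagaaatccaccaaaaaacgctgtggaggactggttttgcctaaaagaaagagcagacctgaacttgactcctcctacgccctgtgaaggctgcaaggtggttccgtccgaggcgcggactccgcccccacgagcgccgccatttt
STAG1: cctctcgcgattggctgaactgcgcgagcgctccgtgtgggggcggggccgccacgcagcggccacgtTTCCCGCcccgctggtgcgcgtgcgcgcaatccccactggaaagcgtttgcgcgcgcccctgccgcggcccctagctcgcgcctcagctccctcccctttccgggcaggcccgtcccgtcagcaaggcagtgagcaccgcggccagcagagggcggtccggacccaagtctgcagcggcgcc
PDS5A: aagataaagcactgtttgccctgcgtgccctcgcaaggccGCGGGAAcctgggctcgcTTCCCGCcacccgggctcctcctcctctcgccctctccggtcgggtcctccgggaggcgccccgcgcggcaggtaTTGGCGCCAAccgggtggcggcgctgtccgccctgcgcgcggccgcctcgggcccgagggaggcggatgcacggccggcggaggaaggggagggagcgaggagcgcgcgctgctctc

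In windows of 300 bases, with 50 bases past the start, TTCCCGC stood in 6.55% of 35116 RefSeq windows, TTGGCGC in 3.04% and TTTGAA in 15.2%, and 9.23% held at least 1 of the E2F cores. Of 11 windows of the 8 members, 6 held an E2F core, in STAG1, PDS5A, PDS5B, NIPBL, SMC1A and STAG2. PDS5A had 4 matches, of which a pair overlapped at a palindrome. All 6 of these members stayed within 2-fold. ESCO2, the member beyond 2-fold, and RAD21 lie on chromosome 8, whose windows were left out for the members. No comparison of these letters with a called member was therefore made. TTTGAA was found in SMC3 and PDS5B. MAU2 held none of these letters, and its window had a GC content of 58.7%, against 76.0% for PDS5A. Matches describe letters in a window and not sites in use.

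All 5 ring genes stayed within 2-fold, each with a ratio below 0. Positions given here and below are those of the member's deposited locus on hg19. Each such locus also holds other rows and can run wider than the member itself. SMC1A, an ATPase of the ring (chromosome X, 53401070 to 53458059), had 28.0 RPKM with MA4-022-1 and 37.4 RPKM with vehicle, a log2 ratio of -0.40. It had a further row on a patch sequence that was listed at 0 in both libraries. RAD21, which closes the ring and is cut by separase (chromosome 8, 117654369 to 117889123), had 26.6 RPKM with MA4-022-1 and 37.6 RPKM with vehicle, a log2 ratio of -0.49. These levels were nearly the same as those of SMC1A in each library.

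SMC3, the partner ATPase and the substrate of ESCO2 (chromosome 10, 112327449 to 112364771), had 15.6 RPKM with MA4-022-1 and 30.7 RPKM with vehicle. It was 1.91-fold lower, the largest difference in the ring. Without a pseudocount its log2 ratio was -0.98, with a 95% counting interval from -1.10 to -0.85, and that of SMC1A was -0.42, with an interval from -0.60 to -0.23. The SMC3 interval met none of the other 4 ring genes' intervals. The level of SMC3 was 0.557 times that of SMC1A with MA4-022-1 and 0.820 times with vehicle, whereas RAD21 was at 0.948 times SMC1A with MA4-022-1 and 1.00 times with vehicle. All stretches of 50 bases of the SMC1A transcripts were found in no other gene of GENCODE release 29, while 7.93% of those of SMC3 also stood in AC019097.1, so the 50-base reads of SMC3 could have been split with it.

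STAG2 (chromosome X, 123093083 to 124319540) was the most abundant member, with 146 RPKM with MA4-022-1 and 207 RPKM with vehicle, a log2 ratio of -0.51. Its paralog STAG1 (chromosome 3, 135969148 to 136471373) had 14.7 RPKM with MA4-022-1 and 21.7 RPKM with vehicle, a log2 ratio of -0.53. STAG2 made up 90.8% of the RPKM of both paralogs with MA4-022-1 and 90.5% with vehicle, so the balance between them was nearly equal in the libraries. The level of STAG2 was 5.19 times that of SMC1A with MA4-022-1 and 5.53 times with vehicle. STAG2 has 18 annotated transcripts in GENCODE, from 296 to 6045 nt, and the lengths behind the deposited RPKM are unknown here, so its level relative to other genes rests on lengths that could not be checked. Its deposited locus also holds 3 expressed rows with no symbol, which stood at 3.06, 0.266 and 4.51 RPKM with MA4-022-1 and at 11.2, 3.70 and 12.1 RPKM with vehicle.

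No stretch of 50 bases was shared between STAG1 and STAG2 or between PDS5A and PDS5B. ESCO2 shared 339 of its 8008 stretches, or 4.23%, with other genes, 633 in all. For STAG2 this was 3.09%, with 244 other genes. STAG1 shared 1615 of its 8076 stretches with its neighbour PCCB, an enzyme subunit of propionate breakdown, which had 170 RPKM with MA4-022-1 and 189 RPKM with vehicle. RAD21 shared 7.37% with UTP23, a ribosome assembly gene in the same deposited locus, at 23.7 RPKM with MA4-022-1 and 39.4 RPKM with vehicle. It shared a further 4.17% with RAD21-AS1, its antisense gene, which was at 0.853 RPKM with MA4-022-1 and 1.23 RPKM with vehicle. The sources used here do not say whether counting used strand.

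**Figure D2:**
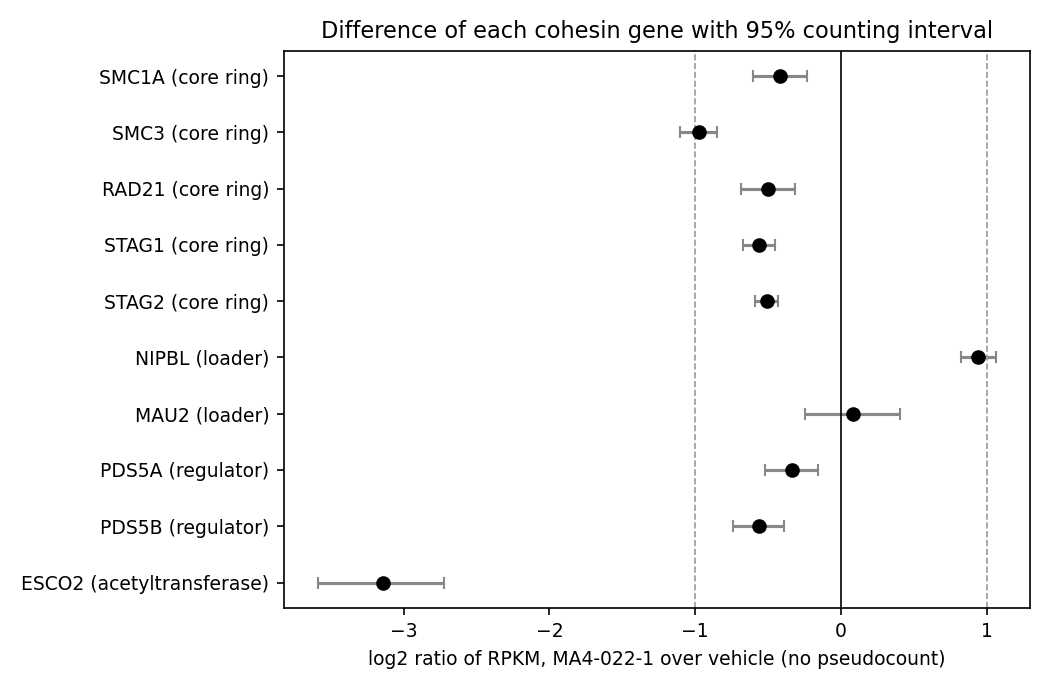
log2 ratio of RPKM without a pseudocount, MA4-022-1 over vehicle, for each cohesin gene. Points are the ratios, bars are 95% counting intervals that leave out any spread between cultures, and dashed lines mark 2-fold. The SMC3 bar runs from -1.10 to -0.85, the NIPBL bar from 0.83 to 1.06, and the MAU2 bar spans 0.

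Both loader genes stayed within 2-fold as deposited. NIPBL, the large HEAT-repeat protein of the loader (chromosome 5, 36876861 to 37066515), had 40.2 RPKM with MA4-022-1 and 20.9 RPKM with vehicle. It was 1.88-fold higher, with a log2 ratio of 0.91, and 533 of the 9842 expressed protein-coding genes had a higher ratio. No stretch of 50 bases of NIPBL was found in another gene. With the housekeeping genes set to 0 its log2 ratio was 1.03, which passes 2-fold. The other expressed row of its locus, CTD-2653M23.1, stood at 1.01 RPKM with MA4-022-1 and 0.270 RPKM with vehicle.

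MAU2, the smaller loader subunit that binds the end of NIPBL (chromosome 19, 19386827 to 19469564), had 16.8 RPKM with MA4-022-1 and 15.9 RPKM with vehicle. The log2 ratio without a pseudocount was 0.08, and its counting interval, from -0.24 to 0.40, spanned 0. With equal sums over the expressed genes the log2 ratio of RPKM + 1 for MAU2 changed sign, to -0.12. NIPBL made up 70.5% of the summed RPKM of both loader genes with MA4-022-1 and 56.8% with vehicle. The NIPBL level was 1.43 times that of SMC1A with MA4-022-1, against 0.557 times with vehicle. WAPL, which opens the ring and was named WAPAL in the tables, was chosen after its values were seen and stood at 11.7 RPKM with MA4-022-1 and 12.6 RPKM with vehicle. Its level was 0.292 times that of NIPBL with MA4-022-1 and 0.605 times with vehicle.

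Both PDS5 genes lay below 0. PDS5A (chromosome 4, 39824483 to 39979576) had 47.1 RPKM with MA4-022-1 and 59.5 RPKM with vehicle, a log2 ratio of -0.33. PDS5B (chromosome 13, 33160564 to 33352157) had 25.9 RPKM with MA4-022-1 and 38.2 RPKM with vehicle, a log2 ratio of -0.55. PDS5B held 35.5% of the RPKM of both with MA4-022-1 and 39.1% with vehicle. The counting intervals of both ratios overlapped, from -0.74 to -0.39 for PDS5B and from -0.52 to -0.15 for PDS5A. These intervals took median transcript lengths of 610.5 nt for PDS5A and 972 nt for PDS5B. The longest transcripts had 7176 nt and 7497 nt, and a longer assumed length gives narrower intervals. The overlap therefore rests on the assumed length.

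ESCO2, the acetyltransferase that acts at replication forks (chromosome 8, 27590835 to 27695612), had 4.97 RPKM with MA4-022-1 and 43.9 RPKM with vehicle. It was 7.53-fold lower on the scale of RPKM + 1, a log2 ratio of -2.91, and 8.84-fold lower without a pseudocount, with a counting interval of that log2 ratio from -3.59 to -2.73. Only 40 of the 9842 expressed protein-coding genes had a lower ratio. Its paralog ESCO1, which acetylates SMC3 in interphase and was chosen after its values were seen, was at 17.1 RPKM with MA4-022-1 and 18.9 RPKM with vehicle. ESCO2 thus made up 22.6% of the RPKM of both acetyltransferase genes with MA4-022-1 and 69.9% with vehicle.

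The deposited locus of ESCO2 also holds PBK, a mitotic kinase gene, which was at 11.8 RPKM with MA4-022-1 and 99.6 RPKM with vehicle, a log2 ratio of -2.98. CCDC25 in the same locus was at 41.2 RPKM with MA4-022-1 and 66.9 RPKM with vehicle, a log2 ratio of -0.68. Of the 8970 other expressed protein-coding genes with a single row, the nearest to ESCO2 in the pair of log2 levels over the 2 libraries were HIST1H3A, HIST1H2BM and NDC80. Their distances on the log2 scale were 0.08, 0.16 and 0.18. HIST1H3A and HIST1H2BM encode replication-dependent histones, whose near-identical copies can share reads, and NDC80 encodes a kinetochore protein. HIST1H3A stood at 4.69 RPKM with MA4-022-1 and 42.6 RPKM with vehicle, and HIST1H2BM at 5.13 RPKM with MA4-022-1 and 39.4 RPKM with vehicle.

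**Figure D3:**
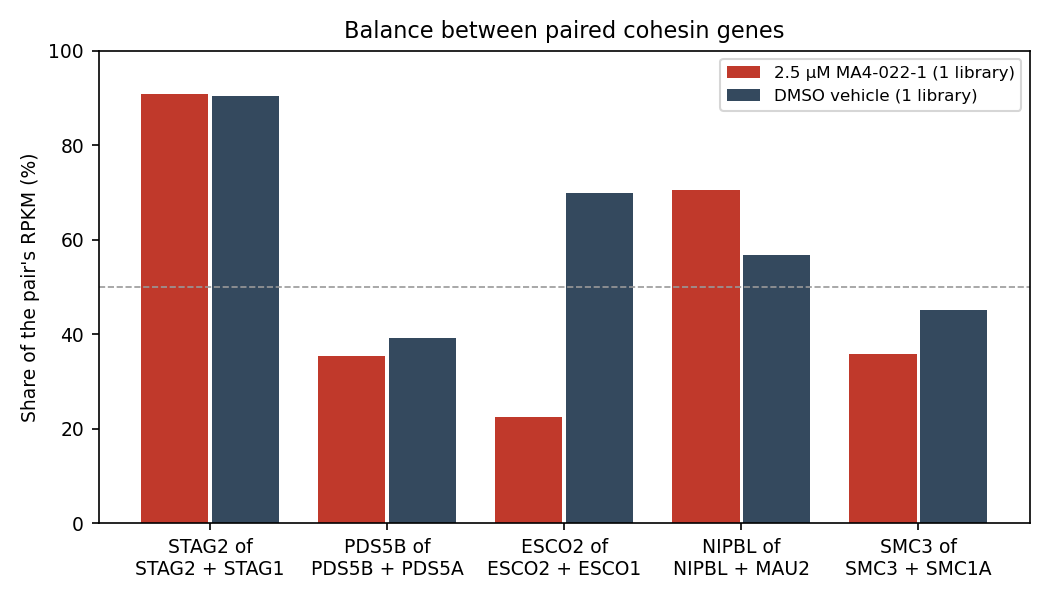
Share of the first gene in the summed RPKM of a pair, in percent, with the MA4-022-1 library left of the vehicle library and 1 library per bar. STAG2 makes up 90.8% of its pair with MA4-022-1 and 90.5% with vehicle, while ESCO2 makes up 22.6% with MA4-022-1 and 69.9% with vehicle.

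The order of levels differed mainly through NIPBL and ESCO2. In the MA4-022-1 library, STAG2 and PDS5A led, NIPBL was the third and ESCO2 the last, below STAG1. In the vehicle library STAG2 and PDS5A led as well, ESCO2 was the third, and NIPBL was the ninth, above MAU2. In some runs of these orders each gene's 95% counting interval overlapped that of the next. With MA4-022-1 these were SMC1A, RAD21 and PDS5B, and then MAU2, SMC3 and STAG1. With vehicle they were ESCO2, PDS5B, RAD21 and SMC1A, and then STAG1 and NIPBL. Such overlaps also rest on the assumed transcript lengths, since longer ones would narrow the intervals.

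**Figure D4:**
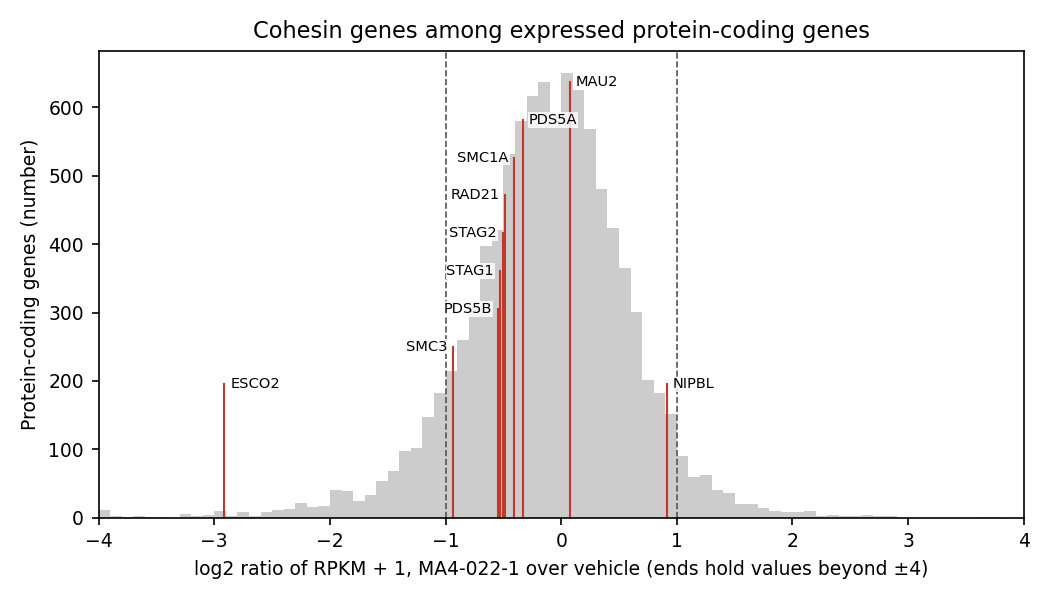
Number of expressed protein-coding genes by log2 ratio of RPKM + 1, in grey, with red lines at the ratios of the cohesin genes; line heights only separate the names and dashed lines mark 2-fold. Between -0.55 and -0.33 lie 6 members, with ESCO2 at -2.91 and NIPBL at 0.91 on either side.

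Several other genes of the cohesin cycle were also lower with MA4-022-1. Of 10 acetylation and fork factors, 5 were at least 2-fold lower and none higher, with a median log2 ratio of -0.95, where 9.5% of the protein-coding genes were lower and 4.12% higher. With a pseudocount of 5 RPKM, 2 of the 10 were lower. DSCC1, of the clamp loader that aids SMC3 acetylation, had 3.70 RPKM with MA4-022-1 and 17.0 RPKM with vehicle, PCNA, the sliding clamp, 39.7 RPKM with MA4-022-1 and 134.6 RPKM with vehicle, and WDHD1, a fork adaptor, 4.55 RPKM with MA4-022-1 and 14.1 RPKM with vehicle. CLSPN, a mediator of the replication checkpoint, was 2.99-fold lower. In the list of removal and protection, 4 of 11 genes lay 2-fold or more below vehicle, with a median of -0.76, against 9.5% of the protein-coding genes and their median of -0.10. With a pseudocount of 5 RPKM this count was 2 of 11. For 1 of the 11 the only row was joined with other symbols, and with joined rows left out the median was -0.86. CDCA5, or sororin, which protects acetylated cohesin from WAPL, had 2.32 RPKM with MA4-022-1 and 14.3 RPKM with vehicle. AURKB, a mitotic kinase, and SGO1, the shugoshin of mitosis, named SGOL1 in the tables, were 4.07-fold and 2.54-fold lower, and BUB1 was 1.93-fold lower.

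Of the 3 genes that end cohesion at anaphase, 1 was at least 2-fold lower, against 9.5% of the protein-coding genes, with ratios of -0.86 for ESPL1, or separase, -0.81 for PTTG1, or securin, and -1.12 for CDC20, which activates the ligase that destroys securin. With a pseudocount of 5 RPKM none of these 3 passed, and with 0.1 RPKM or equal sums 2 did. Genes of chromatin partners had a median closer to 0, -0.25, with 8 of 8 within 2-fold. Among the protein-coding genes 9.5% were at least 2-fold lower and 4.12% higher, so 8 of 8 is near that background. Of these 8 genes 7 had a ratio below 0, against 55.8% of the protein-coding genes, whose median was -0.10. CTCF, the factor at which extruding cohesin stops, had 9.93 RPKM with MA4-022-1 and 13.7 RPKM with vehicle, and YY1 had 76.4 RPKM with MA4-022-1 and 138.6 RPKM with vehicle. SMARCA5, a remodeller, had a ratio of -0.27, and MAZ, in a row joined with 4 other symbols, one of -0.25. Of 4 meiotic subunits, SMC1B and RAD21L1 stayed under 1 RPKM in both libraries, and REC8 was at 1.66 RPKM in each. STAG3 summed to 9.77 RPKM with MA4-022-1 and 2.98 RPKM with vehicle, of which a row joined with PVRIG held 3.82 RPKM with MA4-022-1 and 1.81 RPKM with vehicle.

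Set beside the other SMC complexes, cohesin lay between condensin and SMC5/6, and these differences between lists were not tested. Of 8 condensin genes, 5 were at least 2-fold lower, against 9.5% of the protein-coding genes, with a median of -1.25. NCAPG was at 3.62 RPKM with MA4-022-1 and 40.5 RPKM with vehicle. SMC2, NCAPH and NCAPG2 were 3.94-fold, 3.33-fold and 2.42-fold lower. None of 7 SMC5/6 genes was beyond 2-fold, which is near the background of 9.5% lower and 4.12% higher among the protein-coding genes. Their median was -0.00, which was 0.11 under the housekeeping scale and -0.20 under equal sums. With the highest row of each symbol in place of the sum it was -0.13. SMC6 summed to 27.3 RPKM with MA4-022-1 and 15.4 RPKM with vehicle over 3 rows that differed in direction, of which 1 stood at 16.3 RPKM with MA4-022-1 and 1.09 RPKM with vehicle. NSMCE1, NSMCE2 and NSMCE4A had ratios of -0.77, -0.47 and 0.23.

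**Figure D5:**
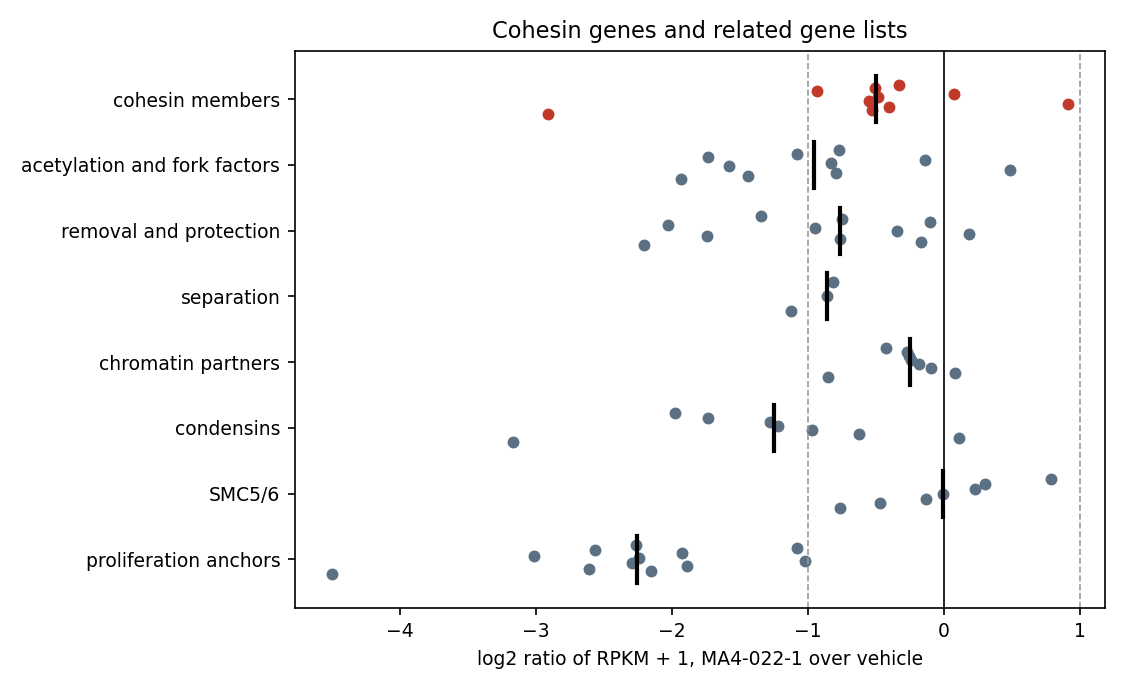
log2 ratio of RPKM + 1, MA4-022-1 over vehicle, for the expressed genes of each list, with 1 point per gene, spread vertically for display, and a black bar at the list's median. Dashed lines mark 2-fold. The cohesin median is -0.50, that of condensins -1.25, that of SMC5/6 -0.00 and that of the proliferation anchors -2.25.

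All 12 proliferation anchors, genes of replication and mitosis, were at least 2-fold lower, where 9.5% of the protein-coding genes were. With a pseudocount of 5 RPKM, or with the housekeeping genes set to 0, 10 of them were. The summed level of all 12 was 220 RPKM with MA4-022-1 and 1117 RPKM with vehicle. RRM2, MCM5, MCM7 and MCM3 had the largest differences, with ratios of -4.50, -3.01, -2.61 and -2.56. The part of the share of cycling cells in the value of ESCO2 and the other lower genes was not tested, and in such bulk libraries fewer cells of a type and less RNA per cell cannot be told apart. BRD2 and BRD3, genes of BET proteins, had ratios of 1.92 and 0.39. The prostate markers KLK3, in a row joined with KLK2, and TMPRSS2 were expressed at 1 RPKM or more in both libraries. Of 8 markers of other cell types only COL1A1 was, with 5.03 RPKM with MA4-022-1 and 1.19 RPKM with vehicle. The summed level of these 8 was 6.45 RPKM with MA4-022-1 and 1.72 RPKM with vehicle, with KRT5 and PECAM1 listed at 0, and their part in the results was not tested.

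The totals behind the RPKM were estimated at 19739892 reads for the MA4-022-1 library and 26771598 reads for the vehicle library, both below the sequencing depth that the labels state. At these totals 3 reads on a transcript of 2000 nt were worth 0.0843 RPKM with MA4-022-1 and 0.0620 RPKM with vehicle, far below the level of any member. The scale between the libraries matters more. Setting the housekeeping genes to 0 shifted all log2 ratios by 0.12, and equal sums shifted the protein-coding median by -0.19. Higher genes made up 30.2% of the protein-coding genes beyond 2-fold as deposited, 44.8% under the housekeeping scale and 16.3% under equal sums. Of the alternatives, 2 pseudocounts and 3 scalings could move a member's ratio. Under these 5 the sign held for 9 of the members, MAU2 being the exception, and the ratio of ESCO2 ranged from -3.12 to -2.29.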

How the data were processed

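Total RNA of C4-2B cells, 1 library with 2.5 µM MA4-022-1 and 1 with DMSO, was depleted of ribosomal RNA and sequenced as single 50-base reads, per the labels' protocols. The submitters' processing notes name TopHat2 2.0.13, Cufflinks 2.2.1 and hg19. The authors deposited RPKM per gene, per the file headers, so no count test was used. Deposited starts count from 0 and are printed from 1.

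Rows of a symbol were summed over 62271 rows, and joined rows counted for each of their symbols. Rows with no symbol, 2751, were left out. Ratios used log2(RPKM + 1), a floor of 1 RPKM in a library and a threshold of 2-fold. Gene types, lengths and the 50-base stretches came from GENCODE release 29, promoter windows from RefSeq. The totals were fitted to whole-read steps in lone processed pseudogenes of 600 to 6000 nt: 87.7% of 195 low values with MA4-022-1 and 87.5% of 256 with vehicle lay within 2% of a whole read. Reads of a gene were estimated from its median transcript length, and 95% intervals are exact (Clopper-Pearson for ratios, Poisson for levels). That median takes in short annotated transcripts, and the intervals would be narrower at the longest transcript. Reads carry no molecular identifiers, so copies made by PCR count as separate reads in these intervals.

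The members and lists were chosen with earlier results of these data known. Named genes were all members, up to 4 per list with the largest ratios at 5 RPKM or more, lists of up to 5 genes whole, BRD2 and BRD3, and the 3 genes nearest to the member of largest ratio. Markers of cell types, and genes that share a locus or stretches with a member, were named outside this rule. Others are marked. Items withheld for evaluation are not reported here. Python 3.11.15, numpy 2.4.6, pandas 2.3.3, scipy 1.17.1 and matplotlib 3.10.9 were used. The fold calls and the fit of the read totals were tested on simulated data, and the other steps were not.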

Additional observations from a re-analysis of the deposited data

How the results depend on the processing

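Pseudocounts of 0.1 and 5 RPKM, 3 scalings, the highest row in place of the sum, joined rows left out, a 1.5-fold threshold, and filters of 5 RPKM or none were tried, 10 alternatives in all. With the housekeeping genes set to 0, 1 member (NIPBL) was at least 2-fold higher, against 0 as reported. With equal sums, 2 members (ESCO2 and SMC3) were at least 2-fold lower, against 1, and the members' median log2 ratio was -0.70, against -0.50. At 1.5-fold, 2 members were lower and 1 was higher. The cofactor, condensin, SMC5/6 and proliferation lists together held 27 genes at least 2-fold lower, where 9.5% of the protein-coding genes were lower. All 12 proliferation anchors and 5 of 8 condensins were among the 27, and no chromatin partner, meiotic subunit or SMC5/6 gene was. The pooled count was 19 with a pseudocount of 5 RPKM and 39 at 1.5-fold. No alternative moved it by more than 1.5 times, but single lists moved. With a pseudocount of 5 RPKM the lower genes numbered 2 of 10 acetylation and fork factors, against 5, 2 of 11 removal and protection genes, against 4, and 0 of 3 separation genes, against 1. Separation had 2 with 0.1 RPKM or equal sums, and chromatin partners had 1 with equal sums, against 0. At 1.5-fold these counts were 8, 7, 3 and 1, and SMC5/6 had 1, against 0. Proliferation anchors had 10 at least 2-fold lower with a pseudocount of 5 RPKM or the housekeeping genes set to 0, against 12. The shares of STAG2 and PDS5B did not depend on how rows were joined or summed, since each gene had a single row. No paired analysis was possible because each condition had 1 library. Depth limited no member, but counting intervals assume a transcript length and hold no spread between cultures.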
